A study of Bos taurus with 12 samples.

Results

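Zinc transporters and metallothioneins were followed across bovine endometrium sampled before embryo transfer. The 10 genes listed were the importers SLC39A1, SLC39A2, SLC39A4, SLC39A6, SLC39A7, SLC39A8 and SLC39A14, the exporter SLC30A1, and the metallothioneins MT1E and MT2A. They were chosen by measured values, since SLC39A2 was picked for its levels in these same pools and the others as its family and partners in zinc handling. For that reason SLC39A2 is described without a test, and tests are given for the other members. A gene was called measured when a probe set with that single symbol was above 4 on the log2 scale on at least 3 of the 12 arrays. Of the 10 genes, 9 had such a probe set and 7 were measured, out of 9155 genes with a probe set and 6781 measured genes on the array.

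The tissue came from Simmental heifers, as endometrial biopsies taken at day 14 or day 7 of the oestrous cycle that preceded the one with the transfer. CD heifers became pregnant and delivered a calf, and NP heifers did not become pregnant and returned to heat. In all groups the transferred embryo had itself been biopsied, and it was placed in the uterus at day 7 of the following cycle. The 4 groups CDd14, CDd7, NPd14 and NPd7 held 3 arrays each, and each array held RNA of a pool. The sources used here do not give how many heifers entered a pool, or whether the pools of both days share heifers, so p-values measure the spread between these pools. The title of the third CDd14 pool carries a name and a replicate number that differ, and it was read by its replicate number.

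Cells take zinc into the cytosol through the ZIP proteins, encoded by SLC39 genes, which move it in from outside the cell or out of organelles. The ZnT proteins, encoded by SLC30 genes, carry it the other way, out of the cell or into organelles such as the Golgi. Metallothioneins are small cysteine-rich proteins that bind zinc and copper in the cytosol, and their genes are switched on by the zinc-sensing factor MTF1. Several ZIP proteins also carry manganese or iron, SLC39A8 and SLC39A14 among them.

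Array medians lay between 4.89 and 5.06 on the log2 scale. Marker genes of cell types were read as the log2 of their summed level. For epithelium (5 of 7 measured) this was 15.92 to 15.98 in CDd14, 15.71 to 15.80 in CDd7, 15.79 to 15.92 in NPd14 and 15.79 to 15.88 in NPd7. Stromal markers (7 of 8 measured) were at 10.83 to 12.12 in CDd14, 10.08 to 11.37 in CDd7, 12.03 to 12.58 in NPd14 and 12.61 to 14.12 in NPd7. Neutrophil markers (3 of 4 measured) were at 9.22 to 10.75 in CDd14, 5.60 to 7.96 in CDd7, 10.44 to 12.60 in NPd14 and 8.19 to 10.95 in NPd7. The stromal and neutrophil levels thus spread more than the epithelial ones, and both had their lowest values in CDd7, as did the leukocyte markers. A summed level follows its brightest gene, which for epithelium was EPCAM, at 15.25 to 15.50 over all pools. Leukocyte markers (5 of 6 measured) were at 10.51 to 11.61 in CDd14, 9.26 to 10.78 in CDd7, 10.23 to 11.53 in NPd14 and 10.29 to 11.45 in NPd7. Markers of ciliated cells (2 of 6 measured) were at 8.17 to 10.29 in CDd14, 9.45 to 11.06 in CDd7, 5.96 to 8.5 in NPd14 and 9.28 to 9.97 in NPd7. Their lowest value, 5.96, was in NPd14 pool 3. Of 4 endothelial markers only CLDN5 was measured, at 1.66 to 2.05 in CDd14, 5.78 to 7.21 in CDd7, 2.04 to 3.29 in NPd14 and 3.21 to 4.75 in NPd7, while PECAM1, VWF and CDH5 were under the filter. The probe sets of the uterine markers PGR, ESR1 and HOXA10 did not pass the filter, so these tissue markers could not be used to check the label. The mean difference between 3′ and 5′ probe sets of 3 control transcripts, which grows as RNA is degraded, was 1.84 to 2.05 in CDd14, 1.42 to 1.79 in CDd7, 2.12 to 2.42 in NPd14 and 1.73 to 2.11 in NPd7. The part of these cell and RNA differences in the results below was not tested. In bulk tissue, fewer cells of a type and less RNA per cell cannot be told apart.

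SLC39A2 encodes a plasma membrane zinc importer. Its log2 level was 13.20, 12.21 and 12.49 in the CDd14 pools and 4.64, 3.08 and 4.05 in the CDd7 pools. In the NPd14 pools it was 12.97, 13.26 and 5.49, and in the NPd7 pools 2.42, 5.58 and 3.02. All CDd14 pools and NPd14 pools 1 and 2 therefore lay high, while NPd14 pool 3 lay inside the range of the day 7 pools. SLC39A2 was above the filter on 9 arrays, and day 7 pools of both outcomes fell on either side of the filter.

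The group means of SLC39A2 were 12.63 ± 0.51 in CDd14, 3.93 ± 0.79 in CDd7, 10.57 ± 4.40 in NPd14 and 3.67 ± 1.68 in NPd7 (SD, n = 3 each). The order was thus CDd14, NPd14, CDd7 and NPd7, in which CDd14 and NPd14 overlapped and the day 7 groups overlapped each other. The day 14 minus day 7 difference was 8.71 in CD, a fold of 418, and it was 6.90 in NP, a fold of 120. Because the day 7 levels lie near the dim end of the scale, these folds depend on how dim values are treated, and with values under 4 set to 4 the differences were 8.40 in CD and 6.05 in NP.

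The gap between outcomes turned with a single pool. The CD minus NP difference of SLC39A2 at day 14 was 2.06, and without NPd14 pool 3 it was -0.48, against an NPd14 mean of 13.11 in the other 2 pools. The same pool turned the difference between the day effects, CD minus NP, which was 1.81 with it and -0.73 without it. It was 3.15 without NPd14 pool 2 and 3.0 without NPd14 pool 1. The day 14 minus day 7 difference in NP was 9.44 without NPd14 pool 3, 5.56 without NPd14 pool 2 and 5.71 without NPd14 pool 1. At day 7 the CD minus NP difference was 0.25, with no settled sign: it was -0.29 with values under 4 set to 4, -0.37 without NPd7 pool 1, -0.10 without CDd7 pool 1 and -0.07 without NPd7 pool 3, against 1.21 without NPd7 pool 2. NPd14 pool 3, where SLC39A2 was low, was also the array with the lowest summed level of the ciliated cell markers (5.96, against 7.65 and 8.5 in NPd14 pools 1 and 2). The other pools did not share this pairing. These markers were at 9.45 to 11.06 in CDd7 and 9.28 to 9.97 in NPd7, where SLC39A2 was low as well. CDd14 pool 1 had the lowest marker level of its group (8.17) and the highest SLC39A2 of it (13.2). The part of ciliated cells in the SLC39A2 result was not tested.

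**Figure D1:**
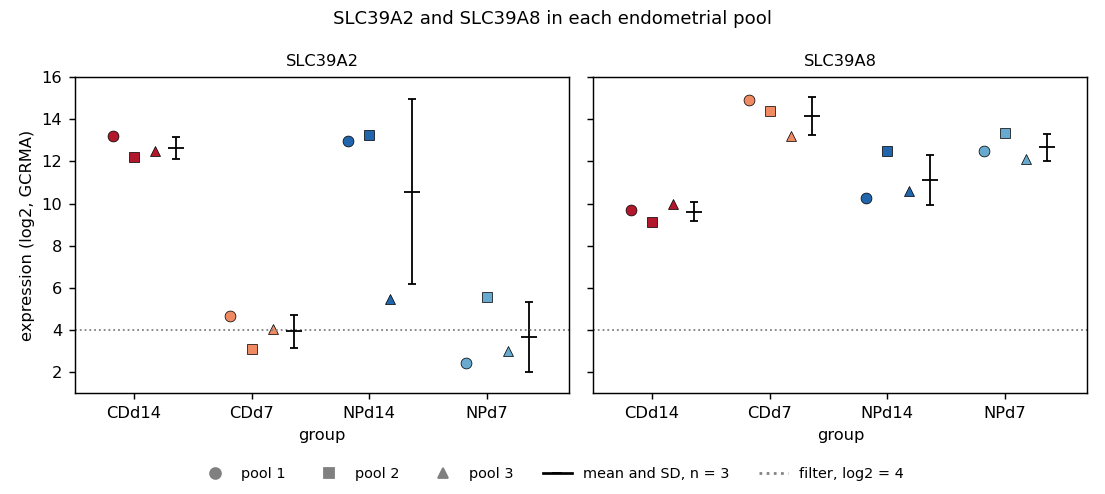
Expression of SLC39A2 and SLC39A8 (log2, vertical axis) in each pool of CDd14, CDd7, NPd14 and NPd7, with symbols for pool number and a bar for the group mean and SD (n = 3). SLC39A2 is high in every day 14 pool except NPd14 pool 3 (5.49), and SLC39A8 has its highest mean in CDd7.

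NPd14 pool 3 was then set against the other genes that changed between days in CD, by placing each NP pool on a scale on which 0 is a gene's CDd7 mean and 1 its CDd14 mean. This measure was chosen after the values had been seen, and it is a description. The median of the 1630 other genes called between days in CD stood at 0.98, 0.74 and 1.04 in NPd14 pools 1, 2 and 3. SLC39A2 stood at 1.04, 1.07 and 0.18 in the same pools. In the NPd7 pools the median of the other genes was 0.65, 0.32 and 0.74, and SLC39A2 stood at -0.17, 0.19 and -0.10. NPd14 pool 2 and NPd7 pool 3 had the same median, 0.74. The median thus does not tell the days apart in NP, and it does not place NPd14 pool 3 by day.

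SLC39A2 was not alone in its position. Of the 668 other genes that rose between days in CD, 151 (22.6%) stood nearer the CDd7 mean in NPd14 pool 3, against 72 (10.8%) in pool 1 and 124 (18.6%) in pool 2. Of the 962 that fell, 60 (6.24%) stood nearer the CDd7 mean in pool 3, 70 (7.28%) in pool 1 and 180 (18.7%) in pool 2. The low SLC39A2 of NPd14 pool 3 thus came with the largest share of such genes among those that rose in CD, and with the smallest share among those that fell.

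**Figure D2:**
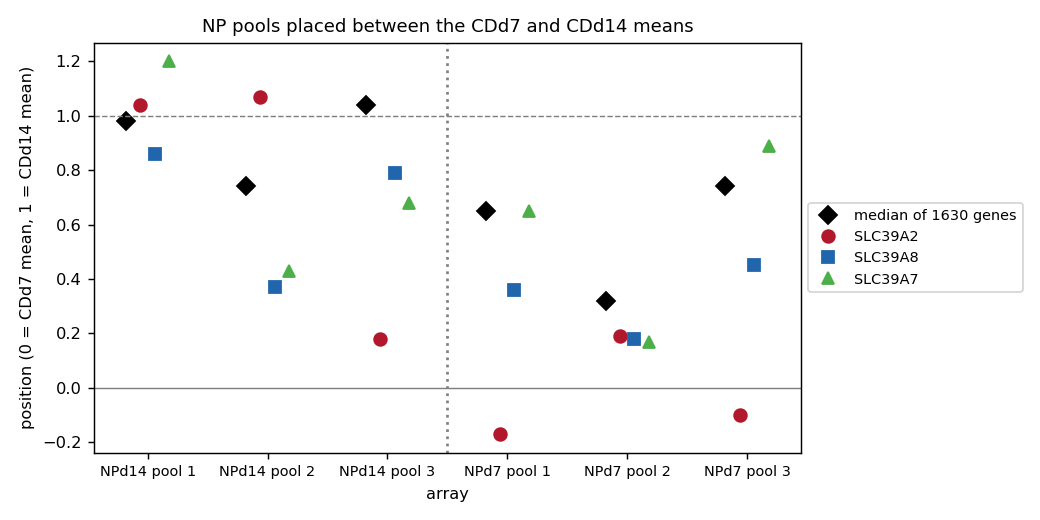
Position of each NP pool between the CDd7 mean (0) and the CDd14 mean (1), for SLC39A2, SLC39A8, SLC39A7 and the median of 1630 other genes called between days in CD. NPd14 pool 3 is at 0.18 for SLC39A2 and at 1.04 for the median of the other genes.

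The 10 genes with the most similar pattern to SLC39A2 over the 12 arrays, by Pearson correlation, were HCRTR1 (r = 0.974), SLC5A1 (0.970), GPLD1 (0.965), FMNL3 (0.957), VLDLR (0.953), NIBAN1 (0.952), DEGS1 (0.951), RLF (0.95), NMB (0.944) and UNC45B (0.944). These correlations are descriptions over arrays that share the same day difference. HCRTR1, an orexin receptor, was at 7.45, 8.44 and 1.76 in NPd14 pools 1, 2 and 3. SLC5A1, a sodium-glucose cotransporter, was at 12.02, 12.95 and 8.61 in them. GPLD1, a phospholipase that releases anchored proteins from membranes, was at 7.86, 10.43 and 2.72. All 10 were chosen over arrays that include NPd14 pool 3, so their low level in that pool follows from the choice and says nothing further of it.

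SLC39A8, which carries zinc, manganese and iron into cells, was lower at day 14 than at day 7 in CD. Its log2 level was 9.71, 9.14 and 10 in CDd14 and 14.92, 14.38 and 13.19 in CDd7, with no overlap between the days. It was 10.27, 12.48 and 10.59 in NPd14 and 12.51, 13.35 and 12.11 in NPd7, where the highest day 14 pool overlapped the day 7 pools. NPd14 pool 2 stood apart from the other NPd14 pools here, whereas for SLC39A2 it was pool 3.

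Between days in CD, SLC39A8 fell by 4.55 on the log2 scale (SE 0.61), a fold of 23.4, with a 95% confidence interval of -5.91 to -3.18 and an adjusted p of 0.00262 (limma, Benjamini-Hochberg over 13449 probe sets, as for all adjusted p-values here). Over the 20 alternative settings the change lay between -5.03 and -4.17 and the adjusted p between 0.00112 and 0.0136. Between days in NP the difference was -1.54 ± 0.61 (SE), with an unadjusted p of 0.0303 and an adjusted p of 0.261 by limma. The difference between the 2 day effects, CD minus NP, was -3.0 ± 0.87 (SE), with an interval of -4.93 to -1.08, an unadjusted p of 0.00596 and an adjusted p of 0.262. That difference therefore did not pass the threshold over the array. CLDN5 was likewise lower in CDd14 (1.66 to 2.05) than in CDd7 (5.78 to 7.21). It was the only endothelial marker measured, and it was above the filter on 5 arrays, all of day 7. By itself it does not give the level of endothelium, and its part in the SLC39A8 result was not tested.

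CD and NP lay on opposite sides of each other on the 2 days for SLC39A8, without passing the test on either. At day 14 the CD minus NP difference was -1.5 ± 0.61 (SE), with an adjusted p of 0.623, and every CDd14 pool was below every NPd14 pool. At day 7 it was 1.51 ± 0.61 (SE), with an adjusted p of 0.137, and the CDd7 and NPd7 pools overlapped. On the scale between the CDd7 and CDd14 means, SLC39A8 stood at 0.86, 0.37 and 0.79 in NPd14 and at 0.36, 0.18 and 0.45 in NPd7. Each of these positions was below the median of the other called genes in the same pool.

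The genes whose pattern over the 12 arrays was most like that of SLC39A8, a search added after its values were seen, were PRODH (r = 0.991), THBS1 (0.979), SPC24 (0.975), ODC1 (0.972) and ARAF (0.971). PRODH encodes the mitochondrial enzyme that begins proline breakdown, THBS1 a secreted matrix glycoprotein, and ODC1 the enzyme that begins polyamine synthesis.

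SLC39A7, which releases zinc from the endoplasmic reticulum into the cytosol, was also lower at day 14 in CD, by a smaller amount. Its log2 level was 9.86, 10.04 and 9.75 in CDd14 and 10.55, 10.52 and 10.49 in CDd7, with no overlap. It was 9.76, 10.25 and 10.09 in NPd14 and 10.11, 10.41 and 9.95 in NPd7, with overlap. Between days in CD it fell by 0.64 (SE 0.16), a fold of 1.55, with an interval of -0.99 to -0.28 and an adjusted p of 0.0191. That call did not hold when CDd14 pool 1 (adjusted p = 0.0503), CDd14 pool 3 (0.0683), CDd7 pool 1 (0.0502) or CDd7 pool 2 (0.0627) was left out. The difference was -0.13 between days in NP (adjusted p = 0.738), and the difference of the day effects was -0.51 ± 0.22 (SE, adjusted p = 0.345). CD minus NP was -0.15 at day 14 (adjusted p = 0.905) and 0.36 at day 7 (adjusted p = 0.157).

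SLC39A1 is a widely expressed plasma membrane importer. Its log2 level was 7.21, 7.45 and 6.93 in CDd14, 6.70, 6.50 and 6.93 in CDd7, 6.93, 7.34 and 6.92 in NPd14, and 6.84, 6.95 and 6.93 in NPd7. CDd14 pool 3 was level with the highest CDd7 pool, and the day 14 minus day 7 difference in CD was 0.48 ± 0.17 (SE), with an adjusted p of 0.0653. It passed the threshold without CDd7 pool 3 (adjusted p = 0.0461) or without NPd14 pool 2 (adjusted p = 0.0481), and its adjusted p was up to 0.215 in the alternative settings. In NP the difference between days was 0.15 (adjusted p = 0.704), and CD minus NP was 0.13 at day 14 (adjusted p = 0.933) and -0.20 at day 7 (adjusted p = 0.455).

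SLC39A6, an importer first known as an oestrogen-regulated gene of human breast cancer cells, did not pass in any contrast. Its brighter probe set was at 10.55, 10.43 and 10.37 in CDd14, at 10.42, 10.52 and 10.39 in CDd7, at 10.43, 10.61 and 10.57 in NPd14 and at 10.38, 10.49 and 10.16 in NPd7. All 4 groups overlapped, and the 4 pairwise differences were -0.09 between outcomes at day 14, 0.10 between outcomes at day 7, 0.01 between days in CD and 0.20 between days in NP. Their adjusted p-values lay between 0.433 and 0.975. The dimmer probe set gave differences of 0.20, 0.32, -0.23 and -0.12 in the same order, with adjusted p-values of 0.466 to 0.935. The probe sets thus differed in sign in 3 of the 4 contrasts, none of them past the threshold.

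SLC39A14, which like SLC39A8 carries manganese and iron as well as zinc, did not pass in any contrast either. Its level was 5.87, 6.32 and 6.19 in CDd14, 6.15, 6.19 and 6.19 in CDd7, 6.21, 6.17 and 6.58 in NPd14 and 6.01, 6.19 and 6.22 in NPd7. The groups overlapped, with CD minus NP at -0.19 at day 14 and 0.04 at day 7, and day 14 minus day 7 at -0.05 in CD and 0.18 in NP. None passed, with adjusted p-values of 0.596 to 0.898.

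The remaining transporters among the members were not measured. SLC39A4, the importer of dietary zinc in the gut, was above the filter on 1 array, at 4.21 in CDd14 pool 3, and between 3.57 and 3.8 on the other arrays. SLC30A1, the plasma membrane exporter whose gene responds to MTF1, was between 2.63 and 2.84 on all arrays. A dim probe set says only that no signal above the filter was recorded, and these genes were left out of the counts of tested genes.

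MT2A, a widely expressed metallothionein, was lowest in CDd7. Its log2 level was 8.31, 8.44 and 8.35 in CDd14, 7.98, 7.26 and 8.04 in CDd7, 8.68, 8.35 and 8.98 in NPd14 and 8.38, 8.31 and 8.47 in NPd7. Every CDd7 pool was below every pool of the other groups. CDd7 pool 2, with the lowest MT2A, also had the lowest 3′ minus 5′ difference of the control transcripts (1.42). NPd14 pool 3, with the highest MT2A, had the highest (2.42). That difference was 1.73 in both CDd7 pool 3 and NPd7 pool 1, where MT2A was at 8.04 and 8.38. The part of RNA quality in the MT2A result was not tested. CD minus NP at day 7 was -0.63 ± 0.22 (SE), a fold of 1.54, with an adjusted p of 0.0956. Day 14 minus day 7 in CD was 0.61 ± 0.22 (SE), a fold of 1.53, with an adjusted p of 0.0628, so neither passed the threshold. The second passed it without CDd7 pool 3 (adjusted p = 0.043) or without NPd14 pool 3 (adjusted p = 0.0486), and its adjusted p was up to 0.203 in the alternative settings. CD minus NP at day 14 was -0.30 (adjusted p = 0.831), day 14 minus day 7 in NP was 0.28 (adjusted p = 0.546), and the difference of the day effects was 0.33 (adjusted p = 0.612). By Pearson correlation over the 12 arrays the genes most like MT2A were RBMX2 (r = 0.971), CSK (0.967), TASOR (0.959), NR2F2 (0.955) and DTX1 (0.954).

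**Figure D3:**
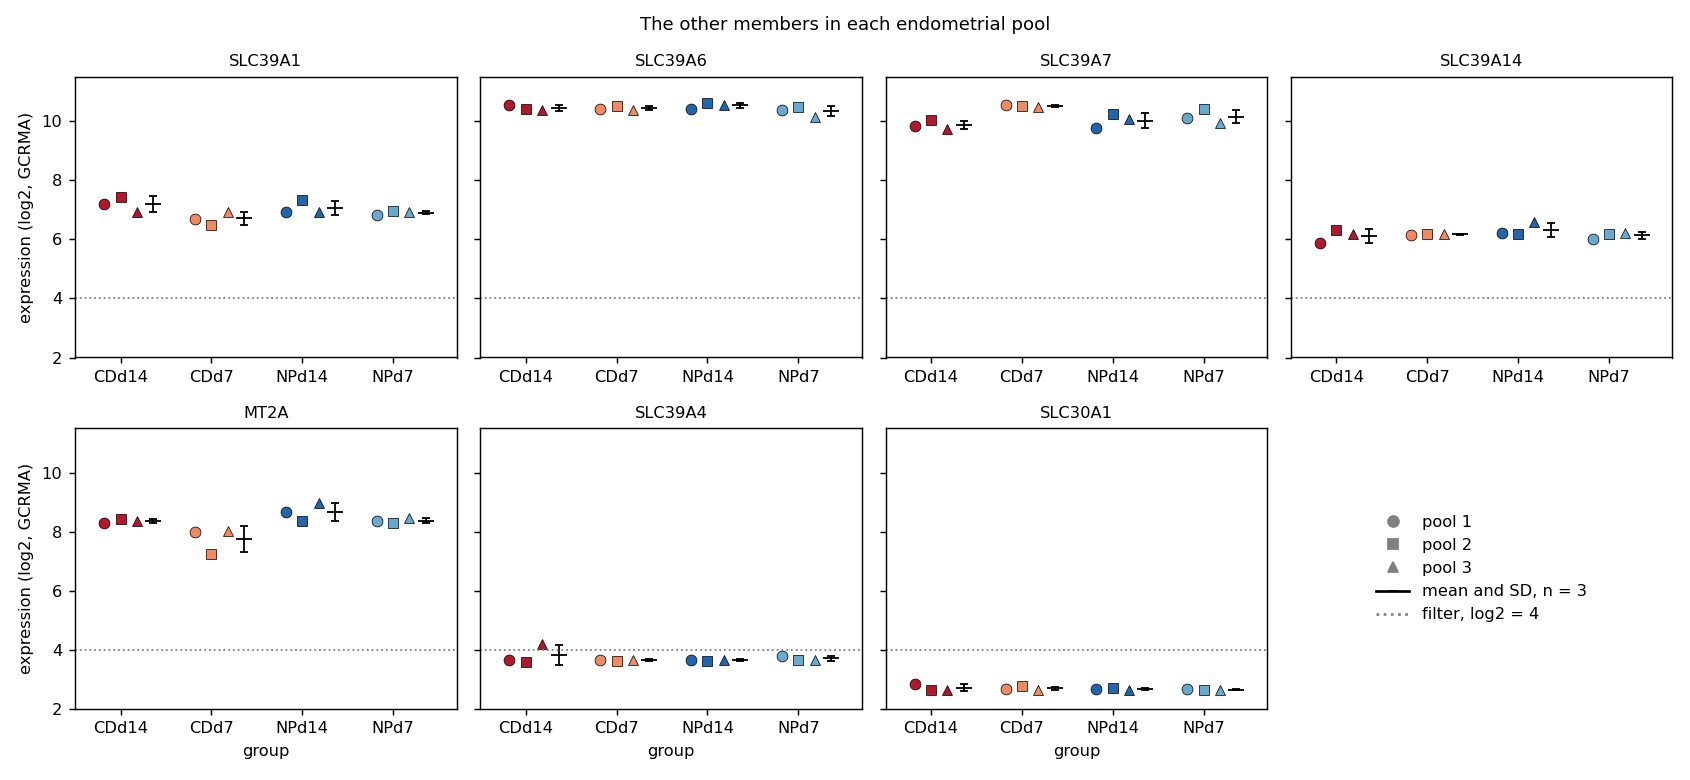
Expression of SLC39A1, SLC39A6, SLC39A7, SLC39A14, MT2A, SLC39A4 and SLC30A1 (log2, vertical axis) in each pool of CDd14, CDd7, NPd14 and NPd7, with symbols for pool number and a bar for the group mean and SD (n = 3). SLC39A7 lies at 9.75 to 10.04 in CDd14 and 10.49 to 10.55 in CDd7, the groups of SLC39A6 and SLC39A14 overlap, and SLC39A4 and SLC30A1 lie under the filter line except for SLC39A4 in CDd14 pool 3.

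No probe set carries the symbol MT1E. RefSeq lists that name as a synonym of both MT1A and LOC613358, which lie in one cluster with MT2A and MT3, so these were followed instead. MT1A, MT3 and MTF1 were on a list of zinc-related genes, and LOC613358 was added after its values were seen. The p-values of LOC613358 are therefore given as a description. Metallothionein genes are near copies of each other, so a probe set may also take up signal of its neighbours, and the genes cannot be told apart on this point.

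MT1A was at 4.17, 6.57 and 6.29 in CDd14, 3.79, 3.47 and 4.89 in CDd7, 6.42, 6.11 and 6.13 in NPd14 and 6.63, 6.15 and 6.12 in NPd7. Every CDd7 pool was below every NPd7 pool, and CDd14 pool 1 lay within the CDd7 range. CD minus NP at day 7 was -2.26 ± 0.57 (SE), a fold of 4.77, with an adjusted p of 0.0532, and day 14 minus day 7 in CD was 1.63 ± 0.57 (SE), with an adjusted p of 0.0601. Without CDd14 pool 1 the adjusted p was 0.0332 between outcomes at day 7 and 0.0109 between days in CD. Without CDd7 pool 3 it was 0.0385 and 0.0348 for the same comparisons, so both passed the threshold when either pool was left out. Of the 20 alternative settings, the first comparison passed in 4 and the second in 2, and the adjusted p of each was up to 0.198. CDd7 pools 1 and 2 lay under 4, so the size of both differences depends on how dim values are treated. CD minus NP at day 14 was -0.54 (adjusted p = 0.900), and day 14 minus day 7 in NP was -0.08 (adjusted p = 0.959).

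LOC613358 gave a like picture, with 6.64, 8.64 and 8.37 in CDd14, 6.68, 5.47 and 6.44 in CDd7, 7.99, 7.85 and 7.72 in NPd14 and 9.22, 7.77 and 8.32 in NPd7. Again every CDd7 pool was below every NPd7 pool, and CDd14 pool 1 lay within the CDd7 range. CD minus NP at day 7 was -2.24 ± 0.54 (SE), a fold of 4.71, with an adjusted p of 0.0503, which reached the threshold in 7 of the 20 alternative settings. Day 14 minus day 7 in CD was a rise of 1.69 ± 0.54 (SE), a fold of 3.21, with an adjusted p of 0.0459, and this call was lost in 12 of the 20 alternative settings. The 12 included leaving out any single pool other than CDd14 pool 1 or NPd7 pools 1 and 2, with adjusted p-values of 0.0523 to 0.167. In NP the difference between days was -0.59 (adjusted p = 0.628), and CD minus NP at day 14 was 0.03 (adjusted p = 0.997).

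MT3, a metallothionein best known from brain, was at 7.13, 6.10 and 7.79 in CDd14, 5.81, 6.36 and 7.12 in CDd7, 6.61, 5.5 and 6.76 in NPd14 and 7.69, 5.71 and 6.85 in NPd7. MTF1, the zinc-sensing factor, was at 6.0, 5.68 and 5.53 in CDd14, 5.61, 6.32 and 5.43 in CDd7, 5.91, 5.53 and 5.60 in NPd14 and 5.45, 5.60 and 5.51 in NPd7. The groups of both genes overlapped and neither passed the threshold in any contrast.

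**Figure D4:**
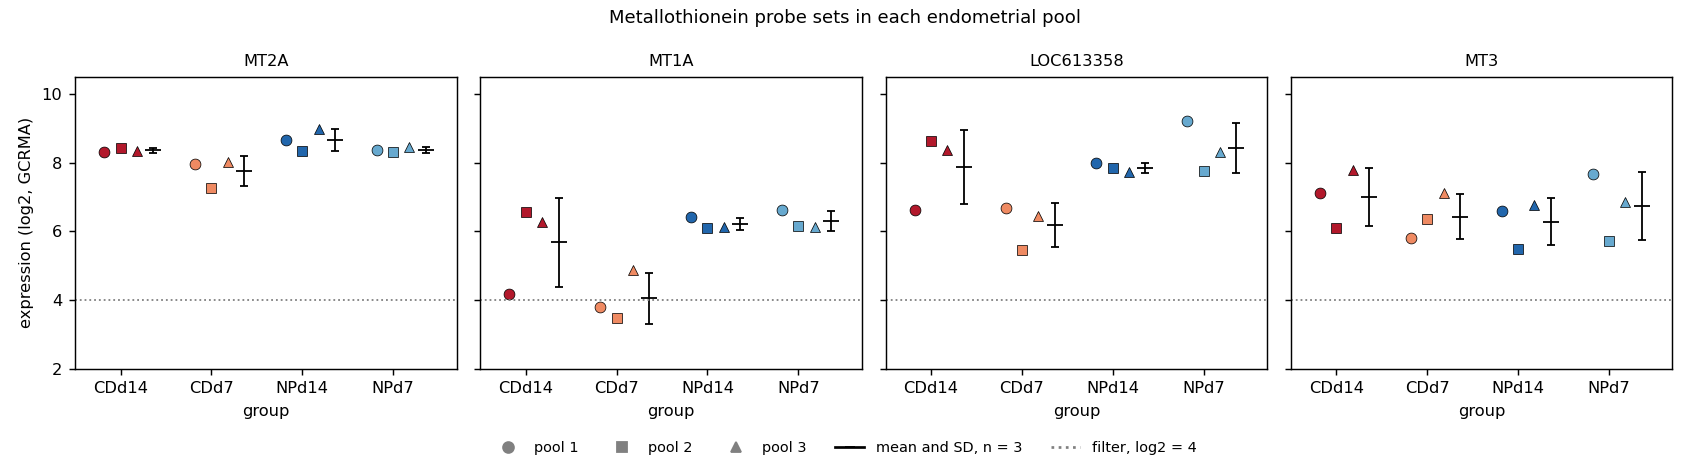
Expression of the metallothionein probe sets MT2A, MT1A, LOC613358 and MT3 (log2, vertical axis) in each pool of CDd14, CDd7, NPd14 and NPd7, with symbols for pool number and a bar for the group mean and SD (n = 3). CDd7 pools are the lowest of all pools for MT2A, and lie below all NPd7 pools for MT1A and LOC613358.

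Read across the members, the tests that passed were between days in CD. There, 24.1% of all measured genes were called (1633 of 6781), and of the 6 tested members 2 fell (SLC39A8 and SLC39A7), 0 rose and the other 4 did not pass, with a median of -0.02 against 0.00 over all genes. At day 7, where CD minus NP called 3.48% of genes, 0 of the 6 members passed, with a median of 0.07 against -0.01 over all genes. At day 14, where CD minus NP called 0.0147% of genes (1 gene), 0 of 6 passed, with a median of -0.17 against 0.03. Between days in NP, where 0.133% of genes (9) were called, 0 of 6 passed, with a median of 0.17 against -0.06. For the difference of the day effects 0% of genes were called, and the members' median was -0.21 against 0.04. The contrasts share arrays, so these counts are not independent of one another.

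Zinc transporters outside the members gave further changes between days in CD, where 24.1% of all genes were called. SLC39A11, a ZIP protein of the Golgi and nucleus in mouse, was at 11.52, 11.33 and 11.42 in CDd14, 10.81, 10.18 and 10.55 in CDd7, 11.68, 11.56 and 11.08 in NPd14 and 10.96, 11.08 and 11.03 in NPd7. The days did not overlap in CD, and SLC39A11 rose by 0.91 ± 0.19 (SE) there, a fold of 1.88, with an adjusted p of 0.00914 that held in all 20 alternative settings. Of the 3 measured importers outside the members it was the only one whose brighter probe set passed the threshold between days in CD, with a median of -0.28 over the 3 (SLC39A9, SLC39A11 and SLC39A13) against 0.00 over all genes. The dimmer probe set of SLC39A9 fell by 1.07 ± 0.33 (SE) between days in CD, with an adjusted p of 0.0414. SLC39A13, another Golgi ZIP, averaged 9.01 ± 0.29 in CDd14 and 9.63 ± 0.63 in CDd7 (SD, n = 3 each), with an adjusted p of 0.115 for the difference.

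Among the exporters, SLC30A5 fell between days in CD. SLC30A5, which loads zinc into enzymes of the secretory pathway, was at 11.38, 11.44 and 11.45 in CDd14, 12.98, 12.83 and 12.61 in CDd7, 11.28, 12.15 and 11.43 in NPd14 and 12.02, 12.75 and 11.66 in NPd7. It fell by 1.38 ± 0.29 (SE) between days in CD, a fold of 2.60, with an adjusted p of 0.00944 that held in all 20 alternative settings. TMEM163, a zinc efflux transporter that is not an SLC30 gene, was at 3.67, 2.21 and 2.97 in CDd14, 6.72, 6.80 and 5.56 in CDd7, 2.33, 3.10 and 2.18 in NPd14 and 2.35, 4.94 and 2.01 in NPd7. Its CDd7 pools were above all others, and of those only NPd7 pool 2 was above the filter. TMEM163 therefore entered the tests through the group where it is high, and its values are given as a description with no test. With values under 4 set to 4, day 14 minus day 7 in CD was -2.36 on the log2 scale and CD minus NP at day 7 was 2.05, against -3.41 and 3.26 on the deposited values. SLC30A6, the partner of SLC30A5 in the Golgi, had mean levels of 7.61 ± 0.55 in CDd14 and 8.46 ± 0.34 in CDd7 (SD, n = 3) and passed in no contrast. Over these 3 exporters the median difference between days in CD was -1.38, TMEM163 included, against 0.00 over all genes. That median is the value of SLC30A5 itself.

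At day 7, where 3.48% of all genes were called between outcomes, SLC39A9 passed among the SLC39 and SLC30 genes outside the members. SLC39A9, a ZIP protein of the Golgi and plasma membrane, was at 10.61, 10.81 and 10.52 in CDd7 and 10.03, 10.22 and 9.97 in NPd7, without overlap. SLC39A9 was 0.58 ± 0.12 (SE) higher in CDd7 than in NPd7, a fold of 1.49, with an adjusted p of 0.0399 that was lost in 10 of the 20 alternative settings. Its dimmer probe set was 1.01 higher in CDd7 than in NPd7 with an adjusted p of 0.0876. The SLC39A9 call was lost when any CDd14 pool, CDd7 pool 1 or 2, NPd14 pool 1, or NPd7 pool 1 or 3 was left out, with adjusted p-values of 0.057 to 0.174. SLC39A3, SLC39A5, SLC39A12 and SLC30A2 had probe sets that did not pass the filter.

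**Figure D5:**
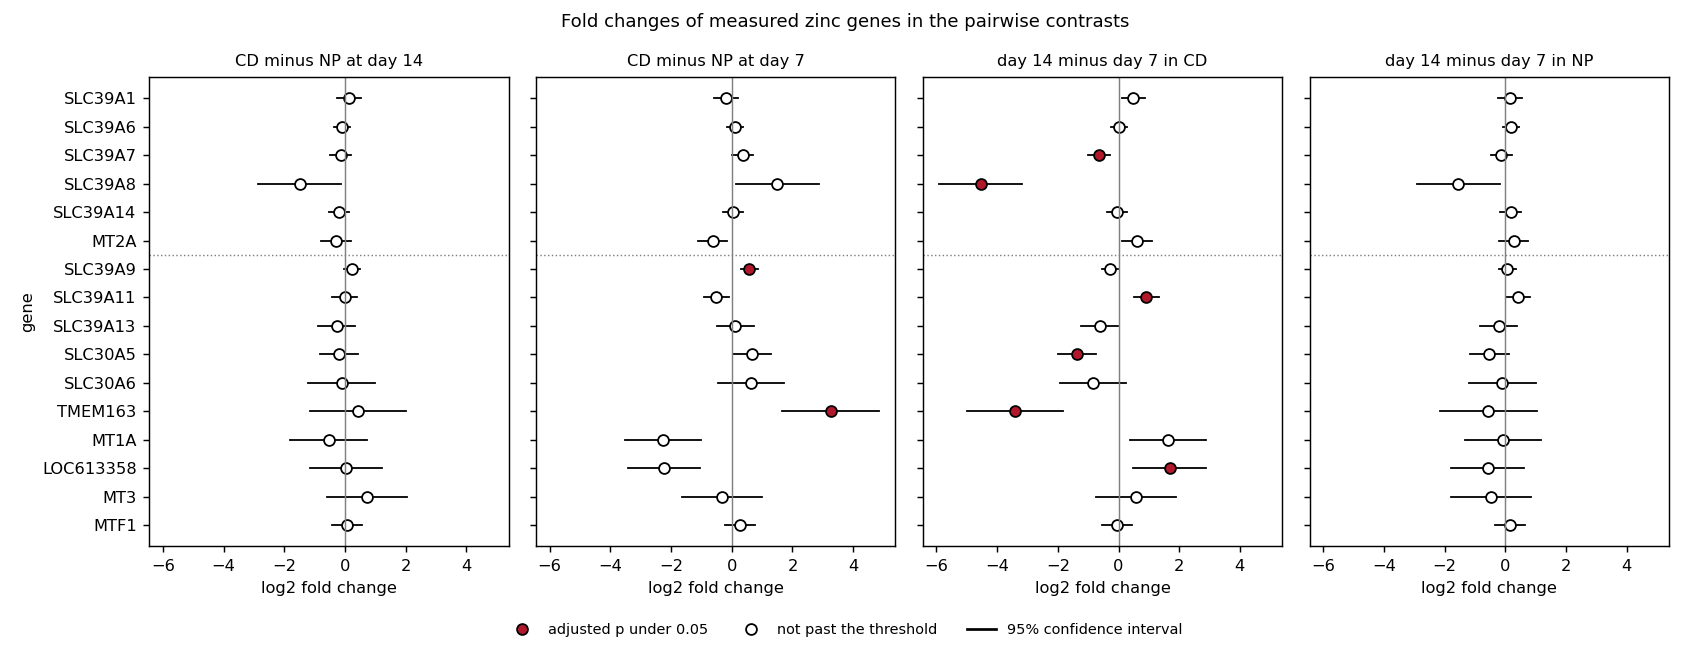
Log2 fold changes with 95% confidence intervals (horizontal axis) of 6 tested members (above the dotted line) and 10 other zinc genes (below it), between outcomes (CD minus NP) at each day and between days (day 14 minus day 7) within CD and within NP. Filled points have an adjusted p under 0.05. They are SLC39A9 between outcomes at day 7, and SLC39A7, SLC39A8, SLC39A11, SLC30A5 and LOC613358 between days in CD. LOC613358 was added after its values were seen, so its point is a description. TMEM163 is also drawn filled, both between outcomes at day 7 and between days in CD. It passed the filter through its high CDd7 pools, so its points and intervals are not read as a test.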

How the data were processed

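Per the labels, endometrial RNA of 12 pools was hybridised to Affymetrix bovine 3′ expression arrays, 1 array per pool. The values are log2 levels as the authors deposited them; the submitters' processing notes name GCRMA and limma, with no version. GCRMA draws dim signals to a shared floor. From 24128 probe sets, 112 control probe sets were left out, and 13449 of 24016 (56.0%) were kept, with log2 above 4 on at least 3 arrays. Gene names come from the array annotation, which can be old. The 9 member symbols found matched the RefSeq gene table by gene ID.

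Means of the 4 groups were fitted to all arrays with limma 3.58.1 in R 4.3.3 (8 residual and 2.13 prior degrees of freedom). The 5 contrasts were two-sided, with Benjamini-Hochberg adjustment over the 13449 probe sets and a threshold of 0.05. A gene was represented by its kept probe set with the highest mean. The genes named were the members, up to 3 genes per list past the threshold in each contrast with the smallest p, MTF1 and SLC30A5, and the 10 genes most like SLC39A2 and 5 most like MT2A by correlation. MT1A, MT3, LOC613358, SLC39A13, SLC30A6, STEAP3 and the genes most like SLC39A8 were named beyond this rule, after their values were seen. The members and lists were chosen with earlier results of these data known. Pool numbers were checked for pairing. Of 18 same-number pairs, 11 had deviations correlated above 0.1 (-0.258 to 0.619), and 9 of 12 arrays correlated best with an array of their own number. The sources do not say what equal numbers share, so the main fit left the numbers out. A fit with the numbers as a replicate block, which changed some calls, is given below. Tested on simulated data in which 200 probe sets changed, the fit at a fold of 2 recovered 51.0% between days in CD and 11.5% of changes in the difference between day effects, and at a fold of 4 it recovered 85.5% and 77.5%. In the real data 3231 probe sets were called between days in CD and 0 for the difference. The adjustment depends on how many probe sets change, so these rates hold for the simulated setting only. The number of arrays limits the precision. No sequences were used here.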

Additional observations from a re-analysis of the deposited data

How the results depend on the processing

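SLC39A2 and the 6 tested members were recomputed under alternative settings of the filter, the dim values, the normalization, the variance moderation, the replicate block, the probe sets and the arrays used. Of 594 alternative values of 30 results of the tested members, 577 kept direction and side of the threshold, 4 lost the threshold, 5 reached it and 8 changed sign. Many settings leave a difference itself unchanged, such as the replicate block or leaving out a pool outside the contrast. They could not change its sign, so the count of kept values is not a measure of stability. The count of member genes past the threshold between days in CD was 2, and 1 to 4 when 1 pool was left out: 1 (SLC39A8) without CDd14 pool 1, CDd14 pool 3, CDd7 pool 1 or CDd7 pool 2, and 4 without CDd7 pool 3. In the other contrasts the count was 0 in every alternative run. With the replicate block, MT2A reached the threshold between days in CD (0.61, adjusted p = 0.04, limma), SLC39A8 kept its call (adjusted p = 0.00264), and the LOC613358 call was lost (adjusted p = 0.0645), while CD minus NP at day 7 passed for MT1A (adjusted p = 0.0464) and LOC613358 (adjusted p = 0.048); 9 of 12 arrays correlated best with arrays of their own pool number, a hint from the data only. For SLC39A2, CD minus NP at day 14 was -0.479 without NPd14 pool 3 and up to 3.404 in the other leave-one-out fits, between days in NP it reached 9.441, and the difference of the day effects was -0.733. With the mean of its probe sets SLC39A6 changed sign in CD minus NP at day 14 (0.055) and between days in CD (-0.113). Leaving out 1 pool changed the sign of small differences: SLC39A6 between days in CD (-0.042 to 0.045), SLC39A14 between days in CD (-0.148 to 0.081) and CD minus NP at day 7 (-0.029 to 0.073), SLC39A7 between days in NP (-0.236 to 0.009), MT1A in CD minus NP at day 14 (-0.986 to 0.212) and between days in NP (-0.183 to 0.083), MT3 in CD minus NP at day 7 (-0.841 to 0.149) and between days in NP (-0.984 to 0.005), MTF1 in CD minus NP at day 14 (-0.079 to 0.168), between days in CD (-0.235 to 0.213) and in the day effect's difference (-0.395 to 0.052), and LOC613358 in CD minus NP at day 14 (-0.345 to 0.656). The cause of these changes was not tested. With 3 pools a group, changes at a fold of 2 were recovered only in part on simulated data, in which the number of changed probe sets was unlike that called here.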

Other observations

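Genes of copper, iron and zinc-enzyme lists were read beside the zinc transporters. Between days in CD, 3 of 7 measured copper genes fell and 0 rose, with a median of -0.62, where 24.1% of all genes were called and the median of all genes was 0.00. SLC31A2, a relative of the copper importer SLC31A1, was at 10.64, 9.64 and 9.81 in CDd14 and at 12.89, 12.71 and 12.30 in CDd7, and fell by 2.60 on the log2 scale (adjusted p = 0.0111, limma with Benjamini-Hochberg). SLC31A1 fell by 0.74 (adjusted p = 0.0255), a call lost without any 1 of the CDd14 pools or CDd7 pool 2 (adjusted p up to 0.0975), and CCS, the copper chaperone of superoxide dismutase, fell by 0.64 (adjusted p = 0.00785). Of 14 measured iron and manganese genes, 3 rose and 1 fell, with a median of 0.11, a share near the 24.1% of all genes called. SLC25A37 and SLC25A28, which carry iron into mitochondria, rose by 0.82 (adjusted p = 0.0161) and 0.90 (adjusted p = 0.0108), the first of which was lost without CDd14 pool 2, CDd14 pool 3 or CDd7 pool 2 (adjusted p up to 0.0678). STEAP3, a ferrireductase, rose by 1.0 (adjusted p = 0.0405, lost in 9 of 20 alternative settings, with up to 0.143 without CDd7 pool 2), and ACO1, the iron regulatory protein, fell by 0.67 (adjusted p = 0.0257, lost in 5 of 20, with up to 0.0993 without CDd7 pool 2). None of the genes in these lists passed in CD minus NP at either day or between days in NP. Few genes of any kind were called there: 0.0147% of all genes in CD minus NP at day 14, 3.48% at day 7 and 0.133% between days in NP.

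Among 7 measured zinc-dependent enzymes, ANPEP, a membrane aminopeptidase, was at 10.49, 10.37 and 11.11 in CDd14 and at 13.12, 13.39 and 12.52 in CDd7. ANPEP fell by 2.35 between days in CD (adjusted p = 0.00264, limma), where 24.1% of all genes were called. Of the others, 5 did not pass there, and ADA is given below. The median over the 7, ADA included, was 0.31 against 0.00 over all genes. ADA, adenosine deaminase, was at 4.58, 3.96 and 4.61 in CDd14 and at 3.69, 3.58 and 3.96 in CDd7. It was above the filter on 4 arrays, all of day 14, and so entered the test through the groups where it is high, and no test is given.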
